A study of Mus musculus with 17 samples.

Results

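Lysosomes are the acidic compartments in which cells break down proteins, glycans and lipids delivered by endocytosis and autophagy. Their enzymes are hydrolases that carry a mannose 6-phosphate tag to the lysosome, their membranes hold heavily glycosylated proteins, channels and cholesterol carriers, and the transcription factor TFEB raises many of their genes together. Loss of many of these genes causes a lysosomal storage disease, often with neurodegeneration, and microglia and perivascular macrophages are the brain's resident phagocytes. A set of 33 lysosome genes was followed here, listed by name under a rule that uses no measured value, though the list was drawn up with earlier results of these data known. All 33 were found among the 26131 genes of the count matrix. They cover 6 membrane and transport proteins, 9 cathepsins and other proteases, 7 glycogen and glycoside hydrolases, 4 enzymes of glycosaminoglycan breakdown, 5 genes of sphingolipid and lipid breakdown, and 2 regulators.

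The nuclear RNA came from the posterior brain of 17 female mice aged 2.3 months, all homozygous for a knock-in of the human transferrin receptor (hTfR KI). A transferrin receptor antibody can carry cargo across the blood vessel wall of the brain, and it reaches cells through the endocytic route that ends in lysosomes. All 3 agents carried an antisense oligonucleotide (ASO) against Malat1, a noncoding RNA retained in nuclear speckles. The 4 groups received intravenous saline (n = 4), the free oligonucleotide (Malat1 ASO, n = 4), the oligonucleotide on a conventional receptor antibody (anti-TfR:Malat1, n = 6) or on an engineered receptor-binding transport vehicle (OTV:Malat1, n = 3). Dosing was weekly, 4 times over a labelled 24 days, and the brains were collected 72 hours later. The labels give 50 mg per kg for both conjugates and for saline, and 2 mg per kg for the free oligonucleotide. Nuclei measure nuclear RNA, so lysosomal protein and enzyme activity are outside these data.

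The data covered 284074 nuclei. Their 1099241149 UMIs (unique molecular identifiers, each standing for 1 captured RNA molecule) came to 55393588 to 79866411 UMIs per animal. Levels are UMIs per 1e6 UMIs of a class in an animal (CPM). Classes are the deposited cell labels, with deposited cluster 13 kept apart. There oligodendrocyte precursor markers (Pdgfra, Vcan, Cspg4 and Sox6) summed to 4354 CPM, against 101 CPM in the remaining nuclei labelled neurons. Of its 7782 nuclei, 7336 were labelled neurons, but 7 neuron markers summed to 707 CPM there, against 5024 CPM in the neuron class. The other labels carried their own markers, pooled over all animals. The 6 microglial markers summed to 5508 CPM in microglia and 64.6 CPM in neurons, and the 5 perivascular macrophage markers to 6790 CPM in perivascular macrophages and 14.7 CPM in microglia. Perivascular macrophages also held 2477 CPM of the microglial markers, and the vascular class mixed endothelial, mural and fibroblast markers. Markers of the abundant classes were found in the small ones too. The 7 neuron markers summed to 647 CPM in microglia, 865 in perivascular macrophages and 735 in vascular cells, against 5024 in neurons. The 6 oligodendrocyte markers summed to 1307, 1679 and 1255 CPM there, against 14807 CPM in oligodendrocytes. Precursor markers summed to 1063 CPM in astrocytes. The nuclei numbered 185932 in neurons, 74852 in oligodendrocytes, 8444 in microglia, 4960 in astrocytes, 1222 in vascular cells and 657 in perivascular macrophages. A single UMI was worth 12.6 to 47.1 CPM per animal in perivascular macrophages and 5.85 to 23.1 CPM in vascular cells, so single animals are coarse there. In microglia it was worth 1.18 to 3.05 CPM. Of 273792 cell barcodes, 10044 occurred in more than 1 animal. OTV:Malat1 replicate 2 stood apart from the other 16 animals in ways described with the treatment results, where values without it are also given.

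Most lysosome genes had their highest saline mean in the brain's macrophages. In saline animals 13 of the 33 genes had their highest mean in perivascular macrophages and 11 in microglia, followed by 5 in oligodendrocytes, 3 in vascular cells and 1 in astrocytes. Some of the 13 rest on few UMIs. Perivascular macrophages gave 10 UMIs of Idua, 11 of Ids and 25 of Tpp1. They exceeded microglia for these genes in 8, 7 and 7 of 17 animals. For Ctsz (57 UMIs) and Grn (38 UMIs) they did so in 7 and 9 of 17. No gene peaked in neurons or in cluster 13. Neurons had the lowest mean for 15 genes. Summed over the 33 genes, saline animals held 3377 ± 172 CPM in microglia and 3628 ± 498 CPM in perivascular macrophages (SD, n = 4), against 685 ± 53.2 CPM in neurons. Oligodendrocytes stood between, at 1342 ± 103 CPM, as did astrocytes at 1265 ± 85.4 CPM and vascular cells at 1479 ± 243 CPM. In microglia 24 of the 33 genes were above neurons in every one of the 17 animals, and in oligodendrocytes 22 were. The count was 16 in astrocytes, 14 in perivascular macrophages, 9 in cluster 13 and 8 in vascular cells. Since labels and levels come from the same nuclei and genes, these orders are a description with no test. The counts stand without a share over all genes beside them, so whether they are particular to lysosome genes was not tested. Neurons hold so many nuclei that they still supplied most of the UMIs of nearly all members, for example 92.1% of those of Galc and 90.1% of those of Gaa. The exceptions were Ctss and Ctsh, with 63.6% and 57.1% of their UMIs from microglia, and Tfeb and Sgsh, with 56.7% and 46.2% from oligodendrocytes.

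**Figure D1:**
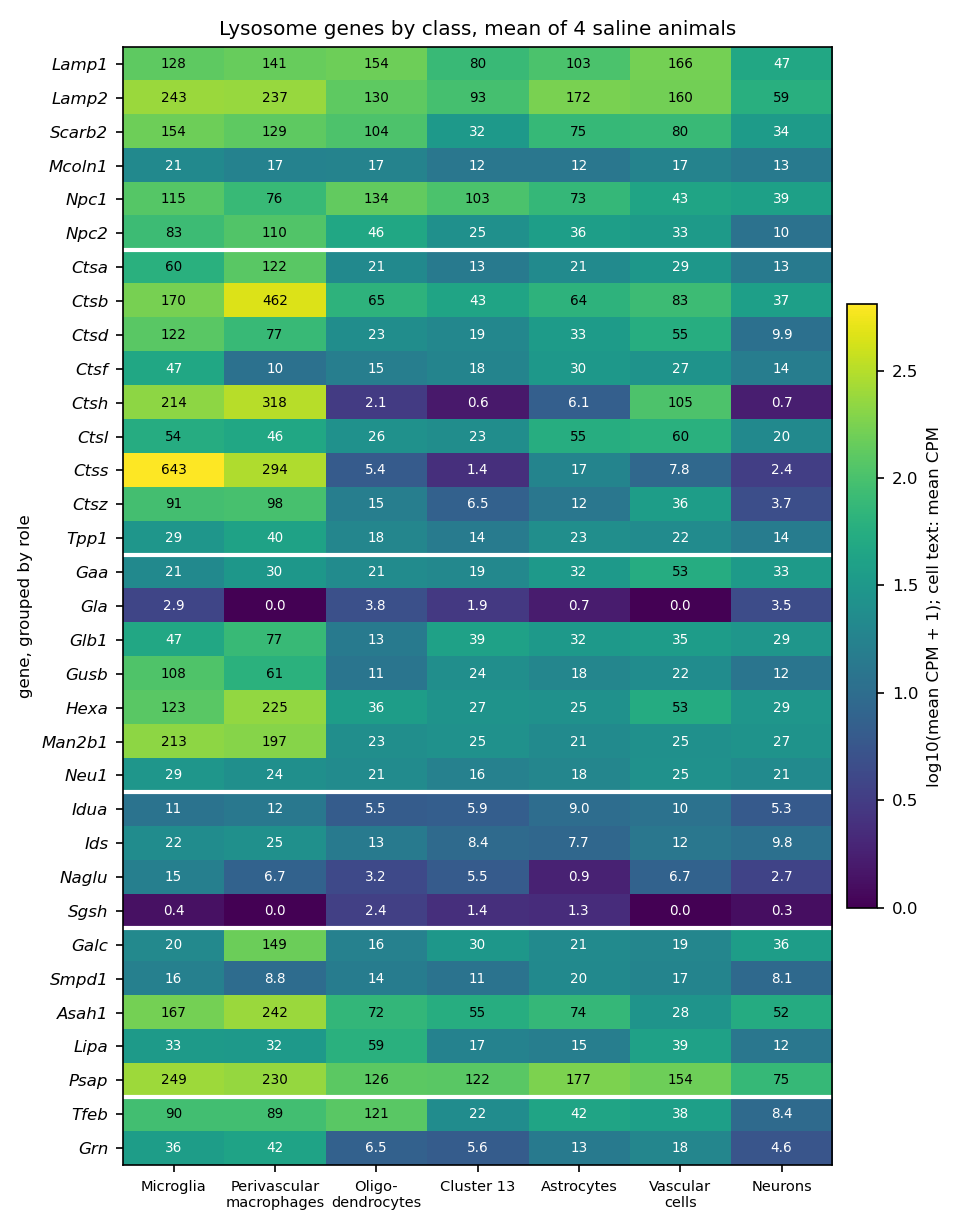
Mean CPM of each lysosome gene (rows, grouped by role) in each class (columns) over the 4 saline animals, with colour on a log10 scale and the mean printed in each cell. The macrophage classes on the left are bright for most rows, and neurons on the right are the darkest column for 15 genes.

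Among the membrane and transport proteins, LAMP1 and LAMP2 are the abundant glycoproteins that line the lysosome. Lamp2 was 243 ± 19.5 CPM in microglia and 237 ± 148 CPM in perivascular macrophages, where microglia were the higher in only 4 of 17 animals, and was lowest in neurons at 58.7 ± 1.51 CPM. Lamp1 was flatter. In vascular cells it was 111, 188, 186 and 178 CPM in the 4 saline animals, and in oligodendrocytes 160, 182, 169 and 102 CPM. Those ranges overlap and neither class led. Scarb2, the receptor that brings beta-glucocerebrosidase to lysosomes, was highest in microglia (154 ± 15.1 CPM) and exceeded perivascular macrophages in 15 of 17 animals. Npc1, a membrane protein that moves cholesterol out of lysosomes, followed another order. It was 151, 125, 121 and 137 CPM in the oligodendrocytes of the saline animals and 127, 96.7, 114 and 121 CPM in microglia. The oligodendrocyte value was the higher of the pair in all 17 animals. Cluster 13, led by precursor markers, reached 103 ± 18.2 CPM of Npc1, far above the neuron class at 38.7 ± 1.51 CPM. Npc2, its soluble partner, did not share that order and was 110 ± 19.4 CPM in perivascular macrophages, 82.8 ± 9.60 CPM in microglia and 45.5 ± 10.5 CPM in oligodendrocytes. Mcoln1, the lysosomal calcium channel, was low and nearly level in saline means, from 11.9 CPM in cluster 13 to 20.5 CPM in microglia. Its saline mean in perivascular macrophages, 16.7 CPM, rests on 3 UMIs. The means there were 61.6 CPM for Malat1 ASO, 36.8 CPM for anti-TfR:Malat1 and 67.8 CPM for OTV:Malat1, on 9, 10 and 8 UMIs.

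The cathepsins, the lysosome's proteases, included the genes with the widest spread between classes, Ctsh and Ctss. Ctss, a cysteine protease of antigen-presenting cells, was 642, 592, 691 and 647 CPM in the microglia of the saline animals. In perivascular macrophages it was 210, 465, 181 and 320 CPM, below microglia in all 17 animals. Outside macrophages it nearly vanished, with 2.35 ± 0.319 CPM in neurons and 1.41 ± 0.544 CPM in cluster 13. Ctsh, an aminopeptidase of the same family, was 318 ± 150 CPM in perivascular macrophages and 214 ± 55.2 CPM in microglia. These overlapped, and perivascular macrophages were the higher in 9 of 17 animals. In neurons, oligodendrocytes, astrocytes and cluster 13 both genes lay at the level at which defining microglial markers were found there. Neurons held 0.364% of the microglial level of Ctss and 0.391% of that of Ctsh, and 0.309% to 3.44% of the levels of the 6 markers. These were the only members of the 33 at or under the highest marker in each of these 4 classes. Whether a share that low is background or expression was not tested.

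Vascular cells parted the pair. Ctsh was 93.5, 119, 93 and 115 CPM there in the saline animals, while Ctss was 0, 0, 20.7 and 10.5 CPM. Pooled over all animals, vascular cells held 42.7% of the microglial level of Ctsh against 1.89% of that of Ctss, and 0.893% to 5.72% of those of the 6 microglial markers. Ctsh in vascular cells was above the share of every marker, and Ctss was not.

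**Figure D2:**
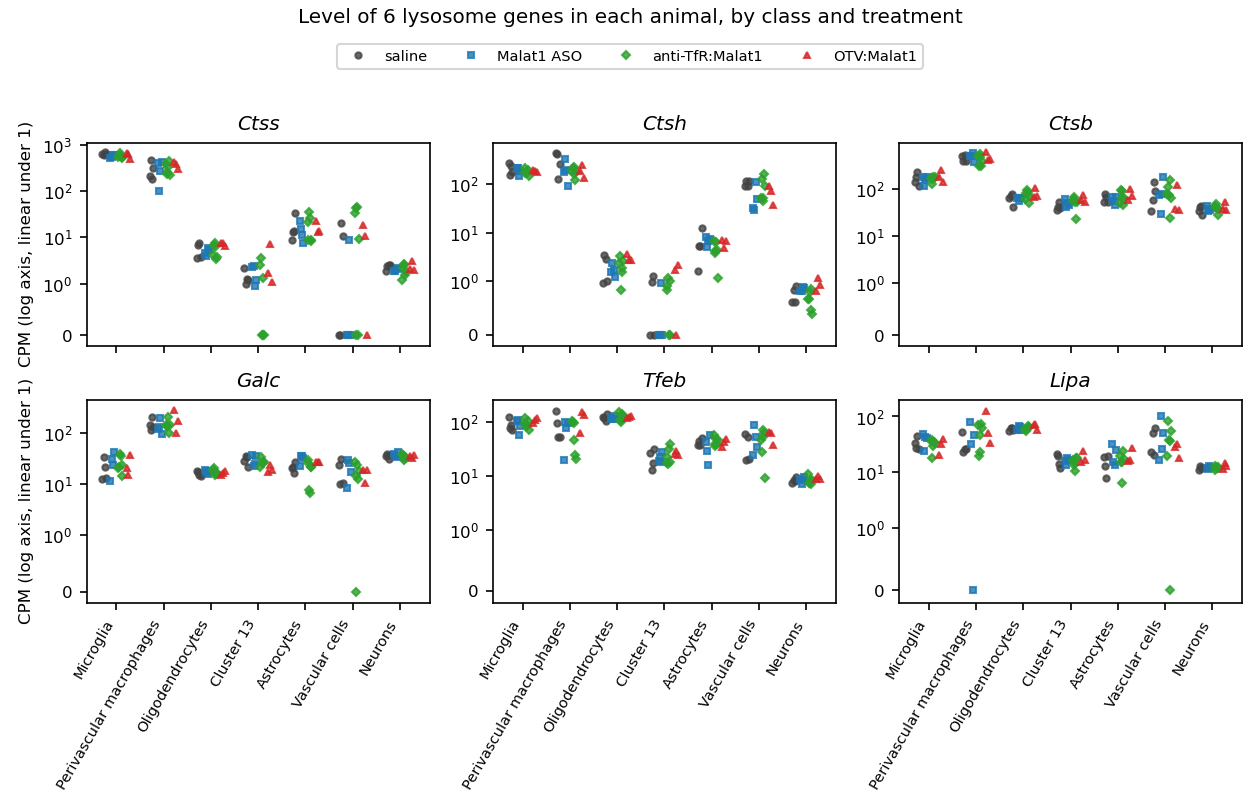
CPM (log axis, linear under 1) of Ctss, Ctsh, Ctsb, Galc, Tfeb and Lipa in each of the 17 animals, by class, with colour and symbol for treatment. Ctss and Ctsh are lowest in neurons and cluster 13, only Ctsh is high in vascular cells, and the 4 treatments overlap in almost every class.

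Ctsb, a broad cysteine protease, was highest in perivascular macrophages, with 508, 395, 543 and 400 CPM in the saline animals. Microglia held 170 ± 50.3 CPM of it and no animal of the 17 put microglia higher. Ctsa, the protective protein that stabilises beta-galactosidase and neuraminidase, was 140, 140, 129 and 80.0 CPM in saline perivascular macrophages, against 59.7 ± 15.9 CPM in microglia. The order held in only 12 of 17 animals, and in OTV:Malat1 animals perivascular macrophages held 30.9, 126 and 33.7 CPM, on 12 UMIs in all. Ctsd, the main aspartyl protease, was 122 ± 17 CPM in microglia and 9.87 ± 2.59 CPM in neurons. Ctsz showed a wider gap, at 91.4 ± 10.9 CPM in microglia and 3.70 ± 1.04 CPM in neurons. Ctsf was 46.5 ± 11.0 CPM in microglia and 10.2 ± 12 CPM in perivascular macrophages, the lowest saline mean of the classes. That mean rests on 2 UMIs. The means there were 9.93 CPM for Malat1 ASO, 14.3 CPM for anti-TfR:Malat1 and 25.1 CPM for OTV:Malat1, on 2, 4 and 6 UMIs. Ctsl was 46.8, 89.3, 62.0 and 42.0 CPM in saline vascular cells and did not differ there beyond its spread from astrocytes (54.9 ± 9.02 CPM) or microglia (54.5 ± 12.9 CPM). Tpp1, a tripeptidase lost in a childhood ceroid lipofuscinosis, ranged from 13.8 to 40.1 CPM across the classes.

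Glycan-degrading enzymes split into a macrophage set and a flat set. Man2b1, the alpha-mannosidase, was 213 ± 45.3 CPM in microglia and 197 ± 43.7 CPM in perivascular macrophages, and between 21.1 and 26.9 CPM in every other class. Hexa, a subunit of beta-hexosaminidase, was 225 ± 65.1 CPM in perivascular macrophages and 123 ± 15.9 CPM in microglia, with the order held in 14 of 17 animals. Gusb, beta-glucuronidase, was 91.8, 114, 104 and 121 CPM in saline microglia, above perivascular macrophages in 12 of 17 animals, and 11.5 ± 1.01 CPM in oligodendrocytes. Glb1, beta-galactosidase, was 77.3 ± 33.2 CPM in perivascular macrophages and lowest in oligodendrocytes at 13 ± 1.51 CPM. Neu1, the sialidase, was level across classes (16.3 to 28.9 CPM). Gaa, the enzyme of lysosomal glycogen breakdown that is lost in Pompe disease, ran against the others. Neurons held 32.4, 33.5, 34.7 and 30.2 CPM, above saline microglia in every one of the 4 (19.8, 22.4, 29.5 and 10.5 CPM). Saline vascular cells held 70.2, 49.6, 41.4 and 52.4 CPM of Gaa and stood above neurons in 11 of 17 animals, but 3 of the 6 anti-TfR:Malat1 animals had none there, and the whole class gave 63 UMIs. Gla, alpha-galactosidase A, had saline means under 4 CPM in every class.

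The saline means of the 4 enzymes of glycosaminoglycan breakdown were under 25 CPM in every class. Single saline animals reached more, up to 46.5 CPM for Ids in perivascular macrophages. Ids and Idua, lost in Hunter and Hurler disease, were 22.5 ± 7.12 and 10.8 ± 1.48 CPM in microglia, each gene on its own scale. Naglu was 16.9, 14.1, 11.8 and 18.4 CPM in saline microglia and 2.72 ± 0.205 CPM in neurons. Sgsh had saline means under 3 CPM in every class and gave 651 UMIs in all 284074 nuclei, of which oligodendrocytes held 301. Its level in oligodendrocytes was 2.39 ± 0.473 CPM, above cluster 13 in 15 of 17 animals and above neurons at 0.285 ± 0.0901 CPM.

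Lipid-degrading genes did not all share a leading class. Galc removes galactose from the main myelin lipid and is lost in Krabbe disease. It was 140, 116, 207 and 133 CPM in the perivascular macrophages of the saline animals, above every other class in all 17 animals, on 111 UMIs. Oligodendrocytes, which make myelin, had the lowest saline mean of all 7 classes. They held 17.6, 16.8, 15.1 and 14.5 CPM, and neurons held 35.2, 39.2, 30.7 and 37.0 CPM, with no overlap. Lipa, the acid lipase that hydrolyses cholesteryl esters, was 53.9, 61.9, 62.9 and 58.4 CPM in saline oligodendrocytes, 33.1 ± 8.72 CPM in microglia and 12 ± 0.762 CPM in neurons. Oligodendrocytes held the higher value over vascular cells (39.1 ± 20.5 CPM) in 14 of 17 animals. Asah1, acid ceramidase, was 242 ± 102 CPM in perivascular macrophages and 167 ± 39.3 CPM in microglia. Psap, the precursor of the saposins that present lipids to the hydrolases, was high everywhere, from 74.9 ± 13.7 CPM in neurons to 249 ± 28.4 CPM in microglia. Smpd1, acid sphingomyelinase, was 11.2, 21.0, 32.3 and 17.2 CPM in saline astrocytes and 17.3 ± 10.1 CPM in vascular cells, so no class led beyond its spread.

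The regulator TFEB drives lysosomal genes when nutrient signalling is low. Tfeb was highest in oligodendrocytes, at 121, 115, 105 and 142 CPM in the saline animals, and was the higher there than in microglia in 16 of 17 animals. Microglia held 123, 77.8, 88.4 and 71.0 CPM and perivascular macrophages 89.0 ± 49.7 CPM. Astrocytes followed at 42.3 ± 5.72 CPM, vascular cells at 37.7 ± 20.2 CPM, cluster 13 at 22.3 ± 8.59 CPM and neurons at 8.42 ± 0.956 CPM. The oligodendrocyte means of all 4 groups lay within the range of the saline animals, at 121 CPM in saline animals, 117 CPM after the free oligonucleotide, and 123 CPM for each conjugate. Grn, which encodes the lysosomal protein progranulin, was 35.9 ± 8.60 CPM in microglia and 4.57 ± 1.14 CPM in neurons.

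TFEB binds the palindrome TCACGTGA, and windows holding it are shown because Tfeb and its possible targets are both members here. RefSeq promoters (GRCm38.p6, 250 bases before to 50 after a gene's start) were matched by symbol for 29 of the 33 genes. Both strands read the same, and the core CACGTG lies inside the longer motif. TCACGTGA was present for 4 of the 29 (Ctsa, Ctsd, Gla and Mcoln1), or 13.8%, against 1.12% of all 27025 genes in that table. The core was present for 11 of the 29, or 37.9%, against 8.09% of all genes. A match is a description of letters and not a measured site. Capitals mark the motif in these 30-base windows, which end upstream of the RefSeq start and read 5′ to 3′ on the gene's strand.
Ctsa: gaacaatgagcaaactgTCACGTGAtgcag
Ctsd: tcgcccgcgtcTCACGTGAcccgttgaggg
Gla, far window: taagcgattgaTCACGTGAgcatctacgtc
Gla, near window: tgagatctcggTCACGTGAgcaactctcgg
Mcoln1: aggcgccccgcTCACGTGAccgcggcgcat
The Ctsa window is chr2:164833743-164833772 on the plus strand, with the motif's first base 13 bases before the start. The Ctsd window is chr7:142387908-142387937 on the minus strand, 99 bases before the start. The Gla windows are chrX:134601215-134601244 and chrX:134601182-134601211 on the minus strand, 228 and 195 bases before the start. The Mcoln1 window is chr8:3500462-3500491 on the plus strand, 46 bases before the start. In the GENCODE M21 annotation the Ctsa, Ctsd and Mcoln1 windows overlap exons of those genes that are annotated as UTR in at least 1 transcript, and both Gla windows lie within the span of Hnrnph2. These 4 genes did not share a class, since Ctsa peaked in perivascular macrophages, Ctsd and Mcoln1 in microglia, and Gla was scarce.

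Levels also differed among clusters of neurons. The 10 deposited clusters compared were those with over 90% of nuclei labelled neurons and at least 3598 UMIs per nucleus, against 5131 over all neurons. Gaa ranged 3.87-fold among them. It was 64.5 ± 4.65 CPM in cluster 1 and 53.9 ± 5.85 CPM in cluster 4 (SD, n = 4 saline animals), then 35.8 ± 2.46 CPM in cluster 10 and 16.7 ± 2.22 CPM in cluster 3. Clusters 1 and 4 both exceeded all 8 others in 16 of 17 animals. Gad2, which marks inhibitory neurons, was 216 ± 11.9 CPM in cluster 1, 191 ± 16.6 CPM in cluster 4 and 160 ± 26.9 CPM in cluster 10, and at most 17.3 CPM elsewhere. Gusb and Lipa were highest in clusters 1 and 4 too, each in 17 of 17 animals. Cluster 1 also had the highest saline mean of several further members, such as Ctsd, Ctsb, Ctsl, Psap and Lamp1, though not of all. It had the fewest UMIs per nucleus of the 10 clusters, at 3598. Gusb was 21.5 CPM in cluster 1 and 16.2 CPM in cluster 4, while the inhibitory cluster 10 held only 7.15 CPM, so Gusb did not follow Gad2. Galc had another order and was highest in clusters 5, 9 and 10 (45.0, 44.4 and 43.2 CPM). Tfeb varied more than Gaa, by 6.00-fold, from 14.9 CPM in cluster 4 to 2.47 CPM in cluster 3, and Ctsz varied by 4.21-fold at lower levels. Ctsh and Sgsh, under 1 CPM in all 10 clusters, had larger ratios still. The narrowest range was that of Lamp2, at 1.32-fold. The clusters were built from the same counts, so these orders carry no test.

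**Figure D3:**
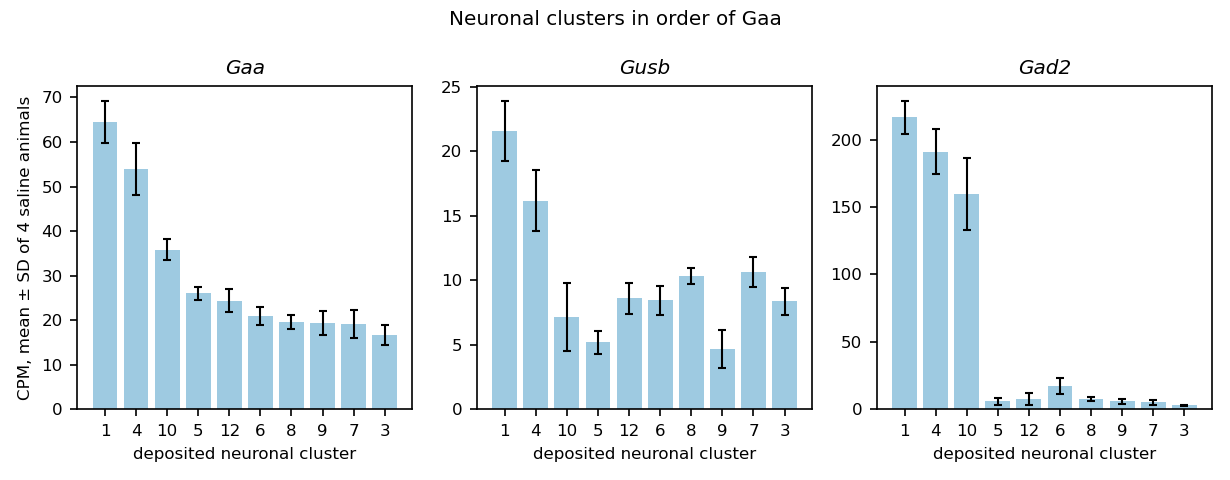
CPM of Gaa, Gusb and the inhibitory marker Gad2 in 10 deposited neuronal clusters, ordered by Gaa, as mean ± SD of 4 saline animals. Gaa is highest in the 3 clusters with high Gad2, and Gusb in only the first pair of them.

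No lysosome gene passed the test under any treatment. Counts were summed per animal and class and compared with edgeR's quasi-likelihood test, with Benjamini-Hochberg adjustment over all genes tested in a class and a threshold of 0.05. In all nuclei, neurons and oligodendrocytes all 33 members were tested. A filter on low counts left 30 in microglia, 25 in astrocytes and in cluster 13, 8 in perivascular macrophages and 5 in vascular cells. Over 8 fits and 4 comparisons, 0 of 768 member tests passed, and the lowest adjusted p of any member was 0.904. DESeq2 also called 0. At an unadjusted p under 0.05 there were 17 member tests with edgeR, 8 higher and 9 lower, and 11 with DESeq2. Leaving out single animals moved the edgeR count between 11 (without saline replicate 1) and 22 (without saline replicate 3). Few genes of any kind passed. The share of all genes called was 0.0209% in oligodendrocytes and 0.011% in microglia for OTV:Malat1 against saline, and 0.0117% in astrocytes. For OTV:Malat1 against anti-TfR:Malat1 it was 0.00696% in oligodendrocytes and 0.0117% in astrocytes. For every other class and comparison it was 0%. For OTV:Malat1 against saline the target itself was called in 3 of the 8 fits. Malat1 fell by 2.82 ± 0.196 (log2, SE) in OTV:Malat1 oligodendrocytes (adjusted p = 1.3e-07) and by 1.65 ± 0.167 in astrocytes (adjusted p = 6.5e-07), and in microglia it fell by 0.71 ± 0.126 (adjusted p = 0.0462). It did not pass in all nuclei (-0.84, adjusted p = 1.00 after rounding), neurons (-0.65, 1.00), perivascular macrophages (-0.82, 0.219), vascular cells (-0.42, 0.939) or cluster 13 (-0.30, 0.998). The members were read in these same libraries.

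The 95% intervals give the range of change around each estimate, which is not the change that the adjusted test can detect. For OTV:Malat1 against saline, 168 of 192 member tests had a 95% interval of the log2 change within ±1 (a 2-fold change either way), and 79 within ±0.5. In all nuclei and in neurons every one of the 33 intervals lay within ±1 in all 4 comparisons. In microglia this held for 25 of 30 genes and in oligodendrocytes for 32 of 33, in the OTV:Malat1 comparison with saline. In perivascular macrophages it held for 4 of 8 genes and in vascular cells for 2 of 5, so for the others a 2-fold change in at least 1 direction lies inside the interval. The comparison of OTV:Malat1 with saline gave 6 member tests at an unadjusted p under 0.05, or 3.13% of 192, against 2.43% of all gene tests. Its comparison with anti-TfR:Malat1 gave 6 as well, against 2.77%. Anti-TfR:Malat1 against saline gave 4 (2.08%, all lower), against 1.9%. Malat1 ASO against saline gave 1 (0.521%, lower), against 1.45%. The 3 comparisons with saline share their saline animals.

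**Figure D4:**
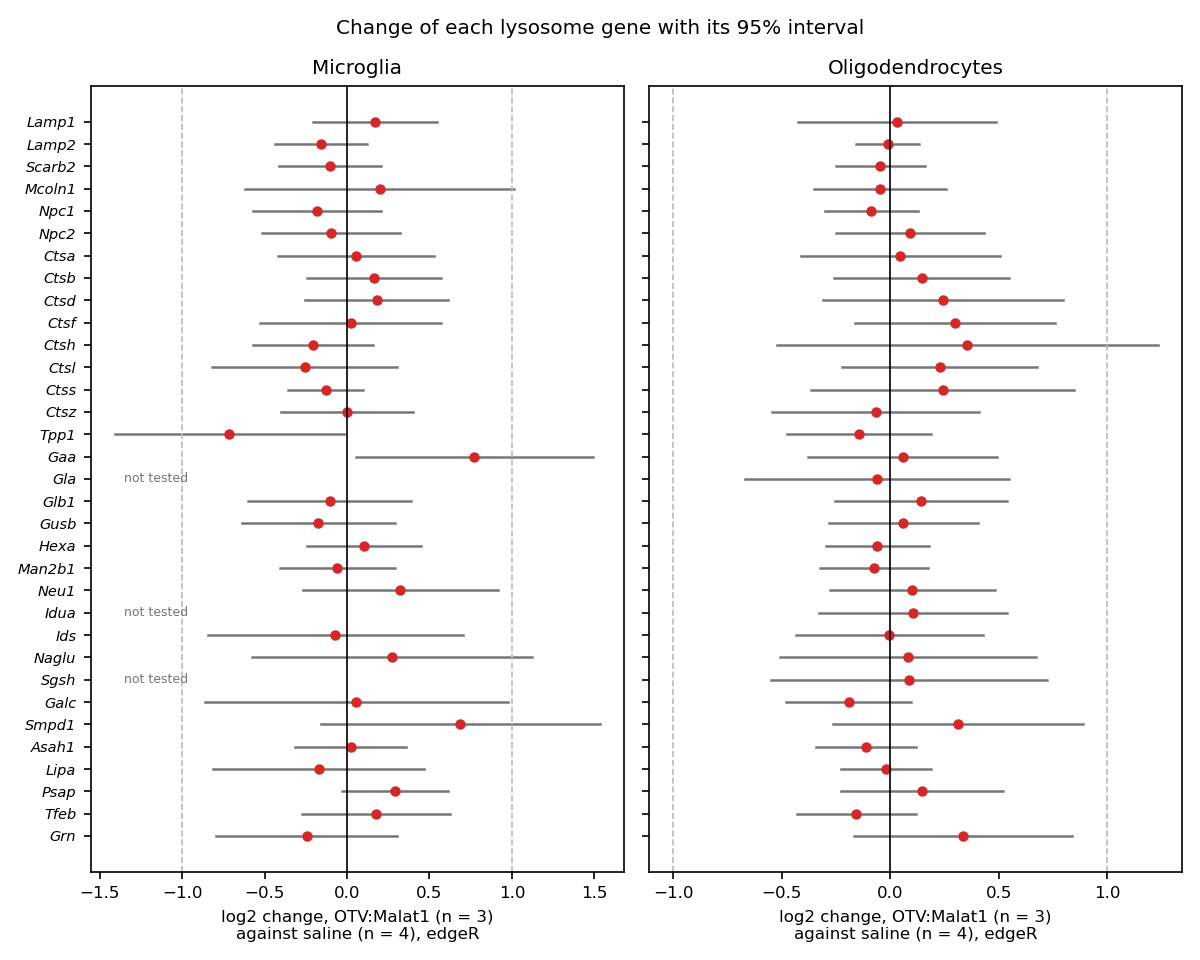
Log2 change of each lysosome gene between OTV:Malat1 (n = 3) and saline (n = 4) animals in microglia and oligodendrocytes, with edgeR's estimate (points) and its 95% interval (bars). Dashed lines mark a 2-fold change, Gla, Idua and Sgsh were not tested in microglia, and no gene passed after adjustment.

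In microglia 3 of 30 genes had OTV:Malat1 and saline CPM values that did not overlap, against 5.03% of the 9104 genes tested there. They were Gaa, Psap and Smpd1, all higher after OTV:Malat1. Gaa was 32.3, 44.7 and 33.6 CPM in the OTV:Malat1 animals and 19.8, 22.4, 29.5 and 10.5 CPM in saline. The groups were apart, but by less than 3 CPM at their nearest, where 1 UMI is worth over 1 CPM. The log2 change was 0.77 ± 0.350 (SE), with an unadjusted p of 0.0360 and an adjusted p of 0.973 (edgeR). Within the 3 batches that hold both groups the Gaa difference in log2(CPM + 1) was 0.51, 0.58 and 1.59. Anti-TfR:Malat1 microglia ranged from 16.6 to 44.7 CPM and overlapped both. Psap was 291, 331 and 317 CPM after OTV:Malat1 and 215, 256, 283 and 242 CPM in saline, a log2 change of 0.29 ± 0.157 (adjusted p = 0.973, edgeR). Smpd1 was 27.7, 22.3 and 27.5 CPM after OTV:Malat1. It was 8.47, 16.5, 17.7 and 21.0 CPM in saline, and 5.53 to 21.9 CPM (median 18.1) in anti-TfR:Malat1 animals. It was the only gene of the 30 apart between OTV:Malat1 and anti-TfR:Malat1, against a background of 1.74%, with a log2 change of 0.79 ± 0.393 (adjusted p = 0.979, edgeR). Within the 3 deposited batches that hold both groups the Smpd1 difference in log2(CPM + 1) was 0.33, 0.12 and 1.43. None of the 30 was apart for anti-TfR:Malat1 against saline (background 0.593%) or for Malat1 ASO against saline (background 1.98%).

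Lower values after OTV:Malat1 did not pass either. Tpp1 in microglia was 13.8, 26.0 and 15.3 CPM after OTV:Malat1 and 28.2, 41.3, 23.6 and 23.7 CPM in saline, with 1 OTV:Malat1 animal inside the saline range. Its log2 change was -0.71 ± 0.338 (adjusted p = 0.973, edgeR). Galc in cluster 13 had the lowest unadjusted p of all 768 tests, 0.00873, with an adjusted p of 0.998 (edgeR). It was 17, 23.0 and 18.6 CPM after OTV:Malat1 and 28.7, 35.7, 34.2 and 21.3 CPM in saline, and the groups overlapped. Tpp1 and Galc were singled out after their values were seen.

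In oligodendrocytes, where the target fell the most, only Lamp2 of 33 genes was apart between OTV:Malat1 and saline, against a background of 12%. It was 136, 153 and 152 CPM after OTV:Malat1 and 133, 129, 130 and 128 CPM in saline. Malat1 made up 10.3 ± 1.76% of oligodendrocyte UMIs in saline and 1.65 ± 0.199% after OTV:Malat1, and CPM are shares of a total that includes it. With Malat1 left out of the totals Lamp2 was 138 to 156 CPM against 139 to 152 CPM and the groups overlapped. The log2 change of Lamp2 with scaling by TMM was -0.01 ± 0.0694 (adjusted p = 0.995, edgeR), with a 95% interval of -0.16 to 0.13. No member was apart in oligodendrocytes for the other comparisons, against backgrounds of 0.982% for Malat1 ASO, 0.571% for anti-TfR:Malat1 and 3.99% for OTV:Malat1 against anti-TfR:Malat1. In all nuclei 0 of 33 were apart in any comparison, against backgrounds of 0.636% for Malat1 ASO, 0.351% for anti-TfR:Malat1 and 3.83% for OTV:Malat1 against saline, and 1.97% for OTV:Malat1 against anti-TfR:Malat1.

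Among the members tested in the remaining classes, 4, in 5 tests, were apart between OTV:Malat1 and saline, all higher after OTV:Malat1. In astrocytes it was 1 of 25 (background 5.72%), Lamp1, a major protein of the lysosomal membrane. Lamp1 was 133, 165 and 152 CPM against 99.7, 131, 116 and 66.5 CPM in saline, a log2 change of 0.43 ± 0.190 with an unadjusted p of 0.0303 and an adjusted p of 1.00 after rounding (edgeR). In perivascular macrophages Lamp1 was again the 1 of 8 (background 4.51%), at 247, 176 and 337 CPM against 87.6 to 163 CPM, on 32 and 24 UMIs in all. In cluster 13 it was 2 of 25 (background 4.94%), Man2b1 at 32.3 to 35.1 CPM against 13 to 31.6 CPM and Tpp1 at 16.2 to 19.7 CPM against 11.9 to 15.2 CPM. In neurons it was 1 of 33 (background 3.67%), Lamp2, at 60.39 to 62.9 CPM against 57.2 to 60.37 CPM, with a log2 change of 0.02 ± 0.0525. In vascular cells it was 0 of 5 (background 6.21%). The share of Malat1 in the UMIs was lower after OTV:Malat1 in these classes too, and CPM are shares of that total. It was 3.30% against 9.62% in saline astrocytes, and 3.87% against 6.73% in perivascular macrophages. In neurons it was 4.27% against 6.42%, and in cluster 13 4.45% against 5.32%. These separations were not checked with Malat1 left out of the totals. Man2b1 in cluster 13 was also apart between OTV:Malat1 and anti-TfR:Malat1 (background 2.28%), and Asah1 in astrocytes was lower after Malat1 ASO, at 49.5 to 66.3 CPM against 70.0 to 76.3 CPM in saline (background 1.68%). No other member tested was apart in these classes. Members left out by the filter on low counts are not in these counts. Asah1 in vascular cells was 63.4 to 91.8 CPM after OTV:Malat1 and 20.7 to 31.5 CPM in saline, on 18 and 13 UMIs. Mcoln1 in perivascular macrophages was 30.9 to 135 CPM against 0 to 25.9 CPM, on 8 and 3 UMIs. Against the same saline animals both were also apart after Malat1 ASO, at 33.6 to 57.5 and 32.8 to 94.3 CPM. Hexa in vascular cells was lower after Malat1 ASO, at 0 to 41.1 CPM against 42.0 to 62.0 CPM. These filtered members are given because their groups did not overlap. The backgrounds cover only genes that passed the filter, so none applies to them. The backgrounds for Malat1 ASO against saline were 2.61% in perivascular macrophages, 2.07% in cluster 13, 2.57% in vascular cells and 0.667% in neurons. Those for anti-TfR:Malat1 against saline were 0.353%, 0.613%, 0.303% and 0.345% in the same order, and 0.773% in astrocytes. Those for OTV:Malat1 against anti-TfR:Malat1 were 2.68% in perivascular macrophages, 1.57% in vascular cells, 2.47% in neurons and 2.13% in astrocytes. The adjusted p of the tested members named here lay between 0.968 and 1.00 after rounding (edgeR).

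The macrophage cathepsins gave the lowest p in all nuclei. Ctss was 8.88, 10.3, 8.70 and 7.50 CPM in saline and 6.38 to 7.52 CPM (median 6.76) in anti-TfR:Malat1 animals, so the groups overlapped only at their edges. Its log2 change was -0.34 ± 0.116, with an unadjusted p of 0.00901 and an adjusted p of 1.00 after rounding (edgeR). Ctsh was 4.12, 3.46, 2.97 and 2.61 CPM in saline and 1.86 to 2.90 CPM (median 2.46) in anti-TfR:Malat1 animals, a log2 change of -0.40 ± 0.155 with the same adjusted p (edgeR). Both genes were singled out after their values were seen. Their estimates were below saline in the other groups as well. In all nuclei the log2 change of Ctss was -0.29 ± 0.139 for OTV:Malat1 and -0.21 ± 0.128 for Malat1 ASO (edgeR). For Ctsh it was -0.28 ± 0.185 and -0.15 ± 0.170. Most of their UMIs come from microglia, and microglia made up 3.30 ± 0.732% of nuclei in saline and 2.81 ± 0.705% in anti-TfR:Malat1 animals, and 0.925 ± 0.224% and 0.758 ± 0.187% of UMIs. In OTV:Malat1 animals microglia made up 2.50 ± 0.196% of nuclei, and in Malat1 ASO animals 3.27 ± 0.512%. The 6 microglial markers summed to 107 to 135 CPM over all nuclei in saline and 93.5 to 129 CPM in anti-TfR:Malat1, with none at 0. Their part in the cathepsin values was not tested. Within microglia Ctss was 510 to 668 CPM (median 560) in anti-TfR:Malat1 against 592 to 691 CPM in saline, a log2 change of -0.19 ± 0.0931 (adjusted p = 1.00 after rounding, edgeR). Ctsh was 146 to 219 CPM (median 179) there against 157 to 281 CPM in saline, a change of -0.25 ± 0.147 with the same adjusted p. In perivascular macrophages Ctsh was 123 to 232 CPM (median 189) in anti-TfR:Malat1 and 456, 419, 129 and 267 CPM in saline, and the groups overlapped. Its log2 change there was -0.80 ± 0.317, with an unadjusted p of 0.0177 and an adjusted p of 0.998 (edgeR), while that of Ctss was 0.09 ± 0.313. Within each of the 4 batches the all-nuclei Ctss difference was negative, between -0.10 and -0.62 in log2(CPM + 1).

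Exact permutation tests of log2(CPM + 1), two-sided, were run for 7 such values. Gaa, Psap and Lamp2 (OTV:Malat1 against saline) reached an exact p of 0.0571 each, the smallest that 3 against 4 animals can give, and were picked for not overlapping. Smpd1 (OTV:Malat1 against anti-TfR:Malat1), picked the same way, gave an exact p of 0.0238, also the smallest for its 3 against 6 animals. For anti-TfR:Malat1 against saline the exact p was 0.0190 for Ctss and 0.0381 for Ctsh. For Galc in cluster 13 it was 0.114. These 7 were picked from the 768 tests by their values, so their exact p-values describe the separation and support no difference. With animals exchanged only within deposited batches the exact p was 0.0556 for Ctss, 0.111 for Ctsh and for Smpd1, and 0.25 for the others. Apart from Ctsh these are the smallest values those designs allow. Since no member passed the adjusted test, no difference between classes was tested.

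A single animal, OTV:Malat1 replicate 2, carried the highest level of 19 of the 33 genes in all nuclei. Its summed level was 1008 CPM, and the other 16 animals lay between 690 and 875 CPM. It also ranked first of 17 in microglia, oligodendrocytes, neurons and cluster 13, for example at 1770 CPM in oligodendrocytes where the others held 1195 to 1489 CPM. It was second in astrocytes, vascular cells and perivascular macrophages. Another measure set this animal apart too. UMIs of 95 ribosomal protein genes made up 0.443% of its total, against 0.213% to 0.354% in the others. The part of this measure in the lysosome values was not tested.

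Without that animal the members' medians changed sign in all nuclei, oligodendrocytes, neurons, microglia and vascular cells, and stayed above 0 in the other classes. For OTV:Malat1 against saline the median log2 change of the 33 genes in all nuclei was 0.01 with it and -0.05 without it (19 genes against 9 above 0). In oligodendrocytes the median was 0.06 with it and -0.05 without it (19 genes against 11 above 0), and in neurons 0.04 and -0.01 (21 genes against 13). In microglia the median of the 30 genes tested was 0.01 and -0.07 (15 genes against 13), and in vascular cells, with 5 genes, 0.01 and -0.15 (3 genes against 2). In astrocytes it was 0.17 with that animal and 0.06 without it, and the genes above 0 went from 15 of 25 to 17 of 27. In cluster 13 it was 0.15 and 0.06, with 17 of 25 and 19 of 26 genes above 0. In perivascular macrophages it was 0.12 and 0.0029, with 6 of 8 and 5 of 9. The median over all genes tested in oligodendrocytes with that animal was 0.01. Members called stayed at 0 in every class without it. Of the changes given above for single genes, that of Gaa in microglia was 0.60 without it, Psap 0.26, Smpd1 against anti-TfR:Malat1 0.91 and Galc in cluster 13 -0.77 (log2, edgeR). The 2 remaining OTV:Malat1 animals summed to 785 and 764 CPM in all nuclei, inside the saline range of 700 to 856 CPM.

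**Figure D5:**
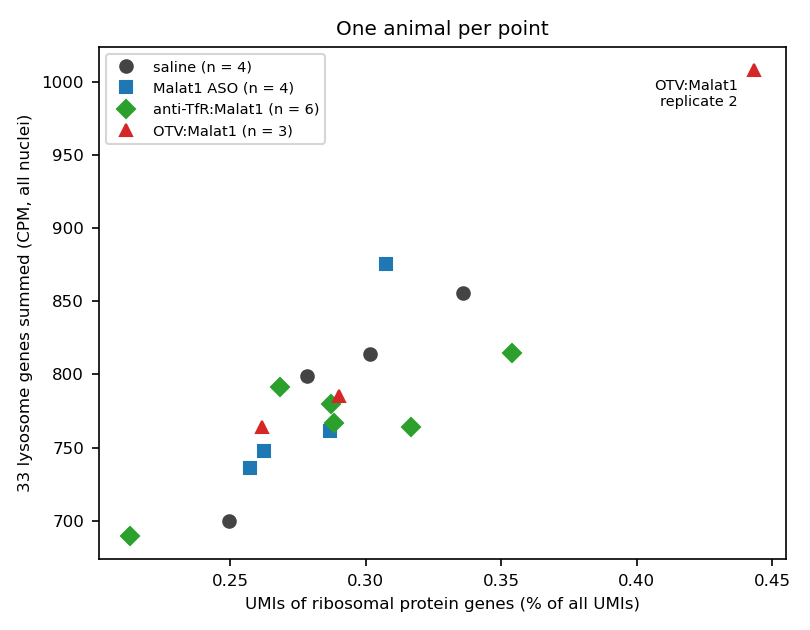
Summed CPM of the 33 lysosome genes in all nuclei (vertical axis) against the percent of UMIs from ribosomal protein genes (horizontal axis), 1 point per animal, coloured by treatment. OTV:Malat1 replicate 2 lies alone at 1008 CPM and 0.443%, and the 4 groups overlap below it.

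Further genes of the pathway were read from 6 lists, 87 genes in all, and none passed the test in any of 2020 tests (edgeR, adjusted p under 0.05). At an unadjusted p under 0.05 there were 28 such tests, or 1.39%, against 2.14% of all 358884 gene tests. The V-ATPase, the proton pump that acidifies lysosomes, had 5 of 492 (4 higher, 1 lower), and its median log2 change in all nuclei lay between -0.02 and 0.06 over the 4 comparisons. Other hydrolases and their activators had 5 of 484 (2 higher, 3 lower), other lysosomal membrane proteins 5 of 416 (3 higher, 2 lower), and the mannose 6-phosphate and sorting route 3 of 160 (1 higher, 2 lower). Cathepsin inhibitors had 2 of 64, both lower, and the TFEB family with the mTORC1 docking complex 8 of 404 (5 higher, 3 lower). By class, 10 of the 18 V-ATPase genes were highest in perivascular macrophages and 5 in microglia of saline animals. The counts were 7 and 7 of the 23 other hydrolases and 5 and 5 of the 18 other membrane proteins. They were 8 and 3 of the 17 genes of the TFEB family and docking complex. Of the 7 genes of the sorting route, which tag hydrolases or carry them to lysosomes, 1 was highest in microglia and none in perivascular macrophages. Of the 4 cathepsin inhibitors, 1 was highest in perivascular macrophages. These counts stand without a share over all genes. Some leads were small, such as Atp6v1h at 123 CPM in microglia and 121 CPM in neurons.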

How the data were processed

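Single-nucleus libraries of 17 animals were read as one matrix. The deposited values are raw UMI counts per gene and nucleus, made with Cell Ranger 6.0.1 on mm10 and Seurat 4 per the submitters' processing notes. How intronic reads and strand were counted is not given in the sources used here. Of the 33 genes, 11 overlap a gene on the other strand and Glb1 overlaps Tmppe on its own strand (GENCODE M21), so their UMIs may hold some of the neighbour's. Cell labels, clusters, batches and doublet calls are the authors' deposited ones. The 47758 nuclei the authors called doublets (16.8%) were kept and left out as an alternative. Every nucleus summed to its deposited total.

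Counts were summed per animal and class (20 or more nuclei) and tested with edgeR 4.0.16 in R 4.3.3 (filterByExpr, TMM, all 17 animals in 1 fit per class, groups alone as terms). Standard errors are the log2 change over the square root of F. The test was checked on simulated data, where it missed part of the 2-fold changes in every class, most of them in microglia, perivascular macrophages and vascular cells. DESeq2 1.42.0, other scalings, filters, label rules, blocks and leaving out each animal were alternatives. Exact tests used scipy with a pseudocount of 1 CPM. Each sample is taken as 1 animal. The labels give samples of a group separate numbers but do not say so outright, and otherwise p-values would measure only the spread between samples. The 225 nuclei labelled Glia were too few to test.

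The members and lists were chosen with earlier results of these data known. Any member could be named. Values per animal were given for members past the threshold (none), for up to 3 per class with the largest ratio of saline mean over the next class (10 CPM or more), and for up to 2 per comparison in all nuclei, microglia and oligodendrocytes whose groups did not overlap. Ribosomal protein genes were added after seeing the values. An item withheld for evaluation is not reported here.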

Additional observations from a re-analysis of the deposited data

Results flagged for a closer look

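In 5 of 60 groups of values checked, the highest or lowest animal lay farther from its neighbours than Dixon's 95% limit allows. Chance flags about 1 in 20 groups. Gusb in microglia was 137 CPM in anti-TfR:Malat1 replicate 2. Tfeb in oligodendrocytes was 125 CPM in Malat1 ASO replicate 4, where the other 3 lay within 114 to 115 CPM. The same animal was the highest of its 4 for Smpd1 in astrocytes (22.3 CPM) and for Gaa in microglia (33.4 CPM). Lamp1 in vascular cells was 111 CPM in saline replicate 1, the lowest of 4.

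The 225 nuclei with the deposited label Glia entered no comparison. Pooled, they held 1234 CPM summed over the lysosome genes (593 of 480616 UMIs), where a count of 0 would allow up to 6.24 CPM. That lies near astrocytes (1265 CPM in saline).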

How the results depend on the processing

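The count of lysosome genes called was 0 in each of the 4 comparisons under all 29 alternatives run, and the lowest adjusted p of any was 0.702. With the title number as a replicate block it was also 0, and 20 of 768 member tests had an unadjusted p under 0.05, against 17 without the block. Numbers and deposited batches coincide in part. The 4 saline and 4 Malat1 ASO animals of a number share a batch, and their deviations in all nuclei correlated at 0.45, -0.05, 0.63 and 0.57. Saline and anti-TfR:Malat1 share it for numbers 1 to 3 (0.37, 0.09 and 0.48) but not for 4 (-0.35), and OTV:Malat1 shares none with saline (-0.44 to 0.51). Not every pair exceeded 0.1, so the number was not taken to pair animals, and the block changed no call. With the deposited batch as a block it was 0, with a lowest adjusted p of 0.857, and 24 of 768 member tests had an unadjusted p under 0.05 (edgeR). Of the 29, requiring 50 or more nuclei per animal bears on the small classes alone. It was refitted in vascular cells (20 member tests) and left too few perivascular macrophage samples, while the other classes hold more in every animal and were not refitted. Lamp2 in oligodendrocytes, at -0.01 for OTV:Malat1 against saline, turned to 0.0067 with the batch as a block, 0.0090 without saline replicate 1 and 0.0146 without OTV:Malat1 replicate 1, and ranged from -0.0444 to 0.0146 over all single removals. The cause was not tested. Smpd1, Ctss and Ctsh were picked by their values. Their exact p was under 0.05 unadjusted, and 0.0667 for each after adjustment over the 7 exact tests. In 18 of their alternatives the unadjusted exact p was not under 0.05. For Smpd1 these include each removal of an OTV:Malat1 animal (p = 0.0714 by the exact test, the smallest such a design allows) and leaving out the authors' doublets (exact p = 0.0952). For Ctsh they include each removal of saline replicates 1, 2 and 3 (exact p from 0.0714 to 0.0952), and for Ctss using only nuclei of 1000 or more UMIs (exact p = 0.105). The leading class of a gene was less stable. Leaving out the authors' doublets kept it for 29 of 33 genes, dropping a saline animal for 25 to 32, and using only nuclei of 1000 or more UMIs for 19, where perivascular macrophages had too few nuclei to be ranked. With Malat1 out of the totals the saline oligodendrocyte means of Lipa and Npc1 moved to 66.0 and 149 CPM.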

Other observations

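Across the 17 animals the summed level of the 33 lysosome genes in all nuclei was higher where the share of UMIs from ribosomal protein genes was higher, a relation looked for after the values were seen. Pearson's r was 0.91 (permutation p = 3e-05) and Spearman's rho was 0.84 (permutation p = 7e-05). OTV:Malat1 replicate 2 and anti-TfR:Malat1 replicate 5 were the animals farthest from the median share, and without them r was 0.70 (permutation p = 0.0036) and rho 0.76 (permutation p = 0.0014). With each treatment's mean subtracted r was 0.90, and with each deposited batch's mean subtracted it was 0.93 (permutation p = 1e-05 for both, the smallest that 100000 resamples give). This was the only such relation computed. Both are shares of the same UMIs, and what they share was not tested.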
